A study of Mus musculus with 65 samples.

Results

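The regions described here are 926 CTCF sites of mouse spermatocytes at which a HORMAD1 peak was listed in both Mei4KO and Iho1KO testes and none in the wild type. They were chosen from the 32676 peaks of the wild-type CTCF list. A member lay on chromosomes 1 to 19, shared at least 1 bp with a HORMAD1 peak of Mei4KO and with one of Iho1KO, shared none with a wild-type HORMAD1 peak, and overlapped no wild-type DMC1 hotspot. They are called gained sites below, a word for this pattern in 3 peak lists. A site that is missing from a list is not shown to lack the protein. The wild-type, Mei4KO and Iho1KO HORMAD1 lists chose the sites, so their values are a description, and so is the absence of wild-type DMC1 hotspots. Of the 30630 autosomal CTCF sites outside wild-type hotspots, 10.6% lay at a Mei4KO HORMAD1 peak, 6.26% at an Iho1KO peak and 1.93% at a wild-type peak.

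HORMAD1 is a HORMA-domain protein of the meiotic chromosome axis, the protein core from which chromatin loops emanate in meiotic prophase, and SYCP3 is a structural component of that axis. MEI4 and IHO1 belong to the machinery that lets SPO11 make programmed double-strand breaks, and IHO1 is known to bind HORMAD1. PRDM9 sets where these breaks fall, and DMC1 coats the single-stranded DNA at them. CTCF is a zinc-finger protein that, with cohesin, anchors chromatin loops.

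The study profiled these proteins by chromatin immunoprecipitation and sequencing of whole testes. The wild type was C57BL/6JCrl, a strain name that the labels give for every group, and the knockouts were Mei4tm1Bdm (Mei4KO), Iho1tm1.2Atot (Iho1KO), Spo11tm1Mjn (Spo11KO), B6;129P2-Prdm9tm1Ymat/J (Prdm9KO) and Hormad1tm1.2Atot (Hormad1KO). Pups in all groups, wild type included, took WIN 18,466, which blocks retinoic acid synthesis, from 1.5 days of age for 7 to 10 days. They then had 1 injection of retinoic acid, and testes were taken 8 days later, when leptotene and zygotene spermatocytes made up 80 to 95% of cells per the labels. In such bulk tissue, binding in fewer cells and less binding per cell cannot be told apart. Peak lists hold no expression values, so the labelled cell type could not be checked against marker genes.

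With 1 peak list for each group, no difference below has a replicate check. The labels give 1 sample for SYCP3 in Prdm9KO, Spo11KO and Iho1KO, and 2 for the other groups used. Per the series' design text, the signal of the protein's own knockout was subtracted for MEI4, IHO1, HORMAD1 and SYCP3, so that all HORMAD1 lists share the Hormad1KO samples as control. The HORMAD1 lists held 1715 peaks in the wild type, 5275 in Mei4KO, 3149 in Iho1KO, 2897 in Spo11KO and 1009 in Prdm9KO. Sequencing depth and calling thresholds are not given in the sources used here. The part of list length in what counts as gained was not tested.

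No genome sequence was used, and the sequences shown are those of RefSeq promoters (GRCm38.p6, the assembly known as mm10) that lay wholly inside a gained site. A form of the CTCF core motif, 13 bases long, was searched on both strands. It was present in 6 of 109 such promoter windows of 300 bases (5.50%, Wilson 95% interval 2.55 to 11.5), against 137 of 3408 inside any autosomal CTCF site outside hotspots (4.02%) and 636 of 31365 autosomal promoters in the table (2.03%). At CTCF sites with a wild-type HORMAD1 peak the motif was in 4 of 83 windows (4.82%). At those with a HORMAD1 peak in Mei4KO, but not in Iho1KO or the wild type, it was in 14 of 236 (5.93%). The share thus does not set the gained sites apart. The intervals cover counting error only and treat windows as independent, although the 109 windows lay in 83 gained sites. The 4 windows below are shown because they hold the motif upstream of the start site and lie at gained sites. Each reads 5′ to 3′ on the gene's strand, with up to 30 bases on either side, and the capitals mark the motif on either strand. A match is a description of the letters, not a measured binding site.
Gys1, chr7:45434784-45434838, plus strand: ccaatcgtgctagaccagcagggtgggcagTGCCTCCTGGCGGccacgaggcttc
Gm26812, chr8:121850125-121850185, plus strand: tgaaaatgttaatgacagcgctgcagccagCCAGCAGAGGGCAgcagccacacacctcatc
Rplp0, chr5:115559260-115559332, plus strand: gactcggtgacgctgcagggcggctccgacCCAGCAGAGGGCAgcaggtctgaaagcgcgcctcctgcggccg
Ankrd39, chr1:36547424-36547496, minus strand: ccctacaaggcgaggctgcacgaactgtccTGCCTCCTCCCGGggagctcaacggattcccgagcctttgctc

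The motif ran on the gene's strand at Gm26812 and at Rplp0, which encodes a protein of the large ribosomal subunit. It ran on the opposite strand at Ankrd39 and at Gys1, which encodes muscle glycogen synthase. These 4 sites behaved differently in the lists that did not choose them. The site at Gys1, with a CTCF score of 6.83, was in none of the 13 other HORMAD1, IHO1 and SYCP3 lists. That at Gm26812 (score 4.51) had a HORMAD1 peak in Spo11KO, that at Ankrd39 (3.48) had one in Prdm9KO, and that at Rplp0 (3.99) had SYCP3 peaks in Spo11KO and Iho1KO.

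In Spo11KO, in which no programmed breaks form, and in Prdm9KO, gained sites were at HORMAD1 peaks more often than CTCF sites at large. The Prdm9KO list is the shorter, with 1009 peaks against 2897 in Spo11KO. The part of list length in the contrast between these genotypes was not tested. Of the 926 sites, 454 lay at a Spo11KO HORMAD1 peak (49.0%, Wilson 95% interval 45.8 to 52.2), where 4.63% of all autosomal CTCF sites outside hotspots did. In Prdm9KO, 110 did (11.9%, 9.95 to 14.1), against 1.95% of all such CTCF sites. Both shares were compared with those of 592 CTCF sites that had a wild-type HORMAD1 peak and no wild-type hotspot, called wild-type HORMAD1 sites, and of 1970 sites with a HORMAD1 peak in Mei4KO only among the 3 lists of the rule, called Mei4KO-only sites. The wild-type HORMAD1 sites were at Spo11KO peaks in 83.4% and at Prdm9KO peaks in 62.8%. The gained sites were lower, with a difference of -34.4 percentage points in Spo11KO (Newcombe 95% interval -38.7 to -29.9) and of -51.0 in Prdm9KO (-55.2 to -46.4). Mei4KO-only sites were at these peaks in 7.82% and 1.22%. The gained sites were higher than these by 41.2 points (37.8 to 44.6) in Spo11KO and by 10.7 points (8.65 to 12.9) in Prdm9KO. With the wider 50% of each list's peaks, these differences were 12.8 points (10.5 to 15.4) and 2.86 points (1.71 to 4.31), and that of Prdm9KO from wild-type HORMAD1 sites was -27.1 points (-31.0 to -23.2), all still called.

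All 4 intervals excluded 0, which is how a difference is called here. Sites are not replicates and the intervals treat them as independent. A total of 13 lists were compared with each of the 2 kinds of sites, and the 95% level was not adjusted over these 26 comparisons. Nor was this level adjusted over the further differences that are called below, some of them with a bound close to 0. The order of the 3 classes in Spo11KO and in Prdm9KO thus ran from wild-type HORMAD1 sites through gained sites to Mei4KO-only sites. The classes were themselves defined by HORMAD1 lists, which share a control with those of Spo11KO and Prdm9KO. Gained sites are in the Mei4KO and Iho1KO lists by rule, and Mei4KO-only sites are absent from that of Iho1KO. How far the order follows from this choice was not tested. The 496 sites with HORMAD1 in Iho1KO only, a comparison added after the data were examined, had 44.4% in Spo11KO and 13.1% in Prdm9KO, and neither difference was called (gained minus Iho1KO-only 4.67 points, -0.772 to 10.1, and -1.23 points, -5.01 to 2.28).

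**Figure D1:**
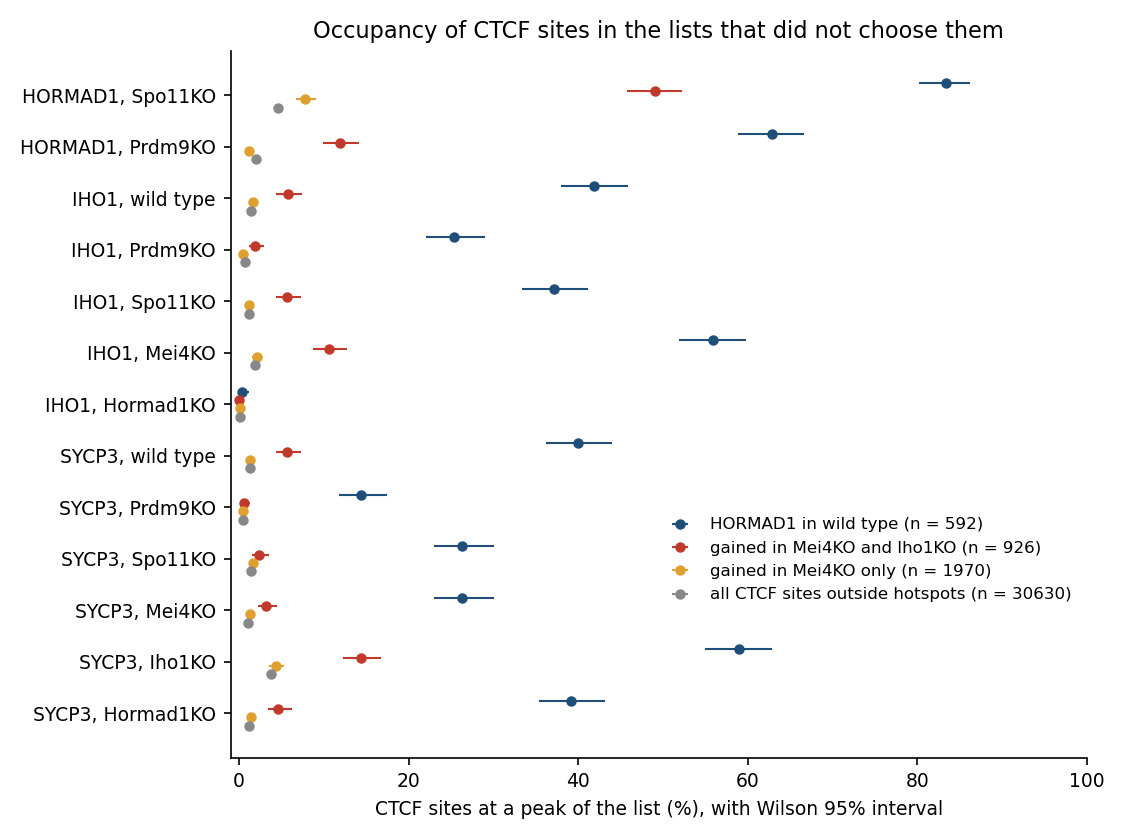
Each row is 1 peak list, and the horizontal axis gives the percentage of CTCF sites that shared at least 1 bp with one of its peaks; points are shares and bars are Wilson 95% intervals, for the 4 classes of sites in the legend. The gained sites (red) lie below the wild-type HORMAD1 sites (blue) in all 13 lists, a difference that was called in 12, and the widest gap to all CTCF sites outside hotspots (grey) is at HORMAD1 of Spo11KO, 49.0% beside 4.63%.

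Within the gained sites, the HORMAD1 peaks of Spo11KO and Prdm9KO were distributed as follows. Both lists held 93 of the 926 sites, Spo11KO alone held 361, Prdm9KO alone held 17, and 455 were in neither. The median CTCF score, described below, was 4.07 for sites in both lists, 3.73 for Spo11KO alone, 3.48 for Prdm9KO alone and 3.51 for neither. Because both lists were made against the same control samples, these counts are given as a description.

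IHO1, the partner of HORMAD1, was listed at few of the gained sites. In the wild type, 53 of 926 lay at an IHO1 peak (5.72%, 4.40 to 7.41, against 1.36% of all autosomal CTCF sites outside hotspots). In Spo11KO 52 did (5.62%, against 1.19%), and in Prdm9KO 17 (1.84%, against 0.669%). Mei4KO, in which every gained site has a HORMAD1 peak by choice, gave the highest IHO1 count, 98 sites (10.6%, 8.76 to 12.7, against 1.85%). In Hormad1KO none of the 926 sites was at an IHO1 peak, which allows a share of up to 0.324% (3 counts of 926, the limit used here for a count of 0), and 0.0555% of all such CTCF sites were. That list held 1860 peaks, beside 1036 for IHO1 in Mei4KO. Its peaks were rarely at CTCF sites of any class (0.338% of wild-type HORMAD1 sites). The count of 0 thus does not set the gained sites apart.

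The wild-type HORMAD1 sites had IHO1 peaks in 41.9% in the wild type, 37.2% in Spo11KO, 25.3% in Prdm9KO and 55.9% in Mei4KO. The gained sites were lower in all 4, with differences of -36.2 points (interval -40.4 to -31.9), -31.5 (-35.7 to -27.4), -23.5 (-27.2 to -20.0) and -45.3 (-49.7 to -40.8). With the wider 50% of each list's peaks they were smaller, at -12.5, -19.8, -11.4 and -21.9 points, and still called. Mei4KO-only sites had 1.62%, 1.12%, 0.508% and 2.08%, and the gained sites were higher than these by 4.10, 4.50, 1.33 and 8.50 points, each interval above 0. With the wider peaks, that of the wild type was 0.414 points (-0.222 to 1.31) and that of Prdm9KO 0.229 (-0.184 to 0.914), neither of them called, and those of Spo11KO and Mei4KO were 2.04 and 2.75, both called. Against Iho1KO-only sites the gained sites were lower in IHO1 of the wild type (5.72% and 10.5%; -4.76 points, -8.04 to -1.83) and of Prdm9KO (-1.99, -4.18 to -0.252), and the differences in Spo11KO (-2.45, -5.48 to 0.226) and Mei4KO (-1.92, -5.60 to 1.47) were not called. The Hormad1KO difference was not called against either class: -0.338 points (-1.22 to 0.143) from wild-type HORMAD1 sites and -0.152 (-0.447 to 0.273) from Mei4KO-only sites.

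SYCP3, the other axis protein, was also listed at a minority of gained sites, most often in Iho1KO. There, 133 of 926 sites lay at an SYCP3 peak (14.4%, 12.3 to 16.8, against 3.75% of all autosomal CTCF sites outside hotspots). The wild type had 52 (5.62%, against 1.24%), Hormad1KO 43 (4.64%, against 1.21%), Mei4KO 29 (3.13%, against 1.09%), Spo11KO 22 (2.38%, against 1.46%) and Prdm9KO 5 (0.540%, against 0.483%). The Prdm9KO share was thus near that of CTCF sites at large. For 74 of the 133 Iho1KO sites, Iho1KO was the only one of the 6 SYCP3 lists with a peak. The Iho1KO list is the longest of these, with 5380 peaks, and its group has 1 sample.

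SYCP3 was at 59.0% of the wild-type HORMAD1 sites in Iho1KO, 40.0% in the wild type, 39.2% in Hormad1KO, 26.4% in Mei4KO and in Spo11KO, and 14.4% in Prdm9KO. The gained sites were lower in all 6 lists, with differences from -44.6 points in Iho1KO (interval -49.0 to -39.9) to -13.8 in Prdm9KO (-16.9 to -11.1), and -34.4 in the wild type (-38.6 to -30.2). With the wider 50% of the peaks, the wild type gave -5.66 points (-7.96 to -3.78), Prdm9KO -5.70, Hormad1KO -13.8, Mei4KO -14.2 and Spo11KO -14.4, all still called. Against Mei4KO-only sites, the gained sites were higher by 10.0 points in Iho1KO (7.72 to 12.6), 4.35 in the wild type, 3.27 in Hormad1KO and 1.81 in Mei4KO. With the wider peaks, the last 3 were 0.350, 0.509 and 0.700 points and were not called, and that in Iho1KO was 3.13 (1.59 to 4.93). Against Iho1KO-only sites the gained sites were lower in all 6 SYCP3 lists, with differences of -4.39 points in Iho1KO (14.4% and 18.8%; -8.62 to -0.391), -3.46 in the wild type, -4.23 in Hormad1KO, -2.72 in Mei4KO, -4.68 in Spo11KO and -2.28 in Prdm9KO, each interval below 0. Over the 13 lists, the gained sites were thus lower than Iho1KO-only sites in 8 and higher in none. The differences from Mei4KO-only sites in Spo11KO, 0.751 points (-0.287 to 2.04), and in Prdm9KO, 0.134 points (-0.366 to 0.879), were not called. That in Spo11KO was 1.22 points (0.311 to 2.46) without sites at gene ends, where it was called.

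Because gained sites all have HORMAD1 in Mei4KO and Iho1KO, each genotype was also read only at sites with HORMAD1 in that genotype. Among sites at a Mei4KO HORMAD1 peak, IHO1 was at 98 of 926 gained sites and at 191 of 349 wild-type HORMAD1 sites (54.7%; difference -44.1 points, -49.6 to -38.5). Among those at a Spo11KO HORMAD1 peak, IHO1 was at 41 of 454 gained (9.03%) and 192 of 494 wild-type HORMAD1 sites (38.9%; difference -29.8 points, -34.8 to -24.7). In Prdm9KO the counts were 9 of 110 (8.18%) and 123 of 372 (33.1%; -24.9 points, -31.1 to -16.8). For SYCP3 in Iho1KO they were 133 of 926 and 296 of 494 (59.9%; -45.6 points, -50.3 to -40.6). Where both classes carried a HORMAD1 peak in the same genotype, gained sites were less often at IHO1 or SYCP3 peaks in all 7 comparisons. These comparisons were added after the data were examined. The HORMAD1 peaks were not matched, and those at gained sites were narrower. Median widths at gained and wild-type HORMAD1 sites were 2583 and 3467 bp in Mei4KO and 1287.5 and 1812 bp in Iho1KO. In Spo11KO they were 1317.5 and 1708.5 bp, and the part of peak width was not tested.

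MEI4 was not listed at the gained sites, except for 1. The wild-type, Prdm9KO, Spo11KO and Hormad1KO MEI4 lists held none of the 926 sites, each of which allows a share of up to 0.324% by the same limit of 3 counts, and the Iho1KO list held 1 (0.108%). The MEI4 lists held 0.0294%, 0.0163%, 0.0294%, 0.0751% and, in Iho1KO, 0.0424% of all autosomal CTCF sites outside hotspots. The rule left out wild-type hotspots, and the MEI4 counts at gained sites were near these low shares. They do not set the gained sites apart from other CTCF sites. The 1 site with MEI4 was at chr6:47753139-47754394, with a CTCF score of 2.28, within 1 kb of an end of the long noncoding RNA gene Gm52862, and in none of the 13 other lists. DMC1 hotspots of Hormad1KO, which the rule did not use, also overlapped 1 gained site (0.108%, against 0.0849% of all such CTCF sites).

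Counted over the 13 lists, 378 gained sites (40.8%) were in none, 301 (32.5%) in 1, 132 (14.3%) in 2, and the rest in 3 to 10. The median was 1 list, against 5 for the wild-type HORMAD1 sites and 0 for Mei4KO-only sites. Of the Mei4KO-only sites 86.1% were in none, beside 4.22% of wild-type HORMAD1 sites. IHO1 of any genotype was at 150 gained sites (16.2%) and SYCP3 of any genotype at 165 (17.8%). Of these, 63 sites had both, 87 had IHO1 alone and 102 had SYCP3 alone.

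**Figure D2:**
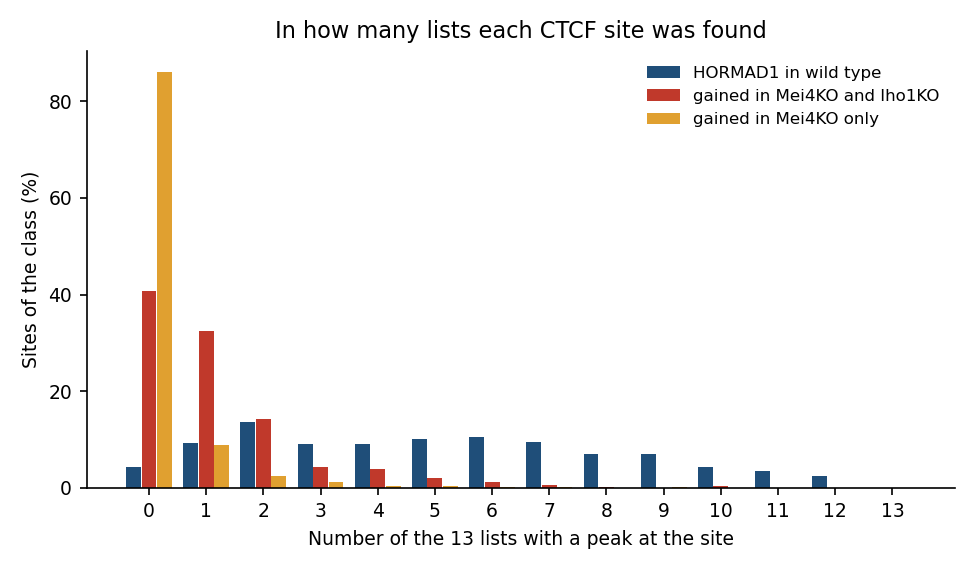
The horizontal axis counts, out of 13 HORMAD1, IHO1 and SYCP3 lists not used to choose the gained sites, those with a peak at a site; bars give the percentage of sites of each class. Of the gained sites (red), 40.8% were in no list and 32.5% in 1, while the wild-type HORMAD1 sites (blue) spread over 0 to 12 lists.

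The members found in the most lists show what the upper end of this range looks like. At chr17:66489150-66491525 (CTCF score 5.75) there were HORMAD1 peaks in Spo11KO and Prdm9KO, IHO1 peaks in the wild type, Prdm9KO, Spo11KO and Mei4KO, and SYCP3 peaks in the wild type, Spo11KO, Mei4KO and Iho1KO, 10 lists in all. The sites chr19:45173287-45178960 (4.67) and chr3:105056683-105061921 (3.78) were also in 10 lists, with SYCP3 in all 6 genotypes at both, and the second of them lacked HORMAD1 in Spo11KO. The sites chr3:116835043-116837531 (4.73), within 1 kb of an end of the noncoding Gm40128, and chr19:44628295-44631307 (4.15), inside the noncoding Gm35460, were in 8 lists. The 3 sites of 10 lists lay 66.0, 41.3 and 28.1 kb from the nearest wild-type HORMAD1 peak, closer than the median gained site.

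The CTCF score is the authors' deposited value per peak of the wild-type CTCF list, whose unit is not named, and it did not enter the rule. Its median was 3.66 for the gained sites (lower and upper quartile 2.77 and 4.56, range 0.759 to 11.5). It was 4.05 for wild-type HORMAD1 sites (3.12 and 5.03), 3.02 for Mei4KO-only sites (2.07 and 3.93) and 1.91 for all autosomal CTCF sites outside hotspots (1.26 and 2.90). Of the gained sites, 664 (71.7%) were in the highest of 4 equal classes of the scores of all such sites, and 202 (21.8%), 41 (4.43%) and 19 (2.05%) in the next lower ones. The classes overlapped widely, and the order of their medians was the same as that of their HORMAD1 shares in Spo11KO. The sizes did not run in parallel. Iho1KO-only sites had a median score of 3.07, close to the 3.02 of Mei4KO-only sites. Their HORMAD1 share in Spo11KO was 44.4%, beside 7.82% for Mei4KO-only sites. The score gives a description across the sites of 1 list, with no test.

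**Figure D3:**
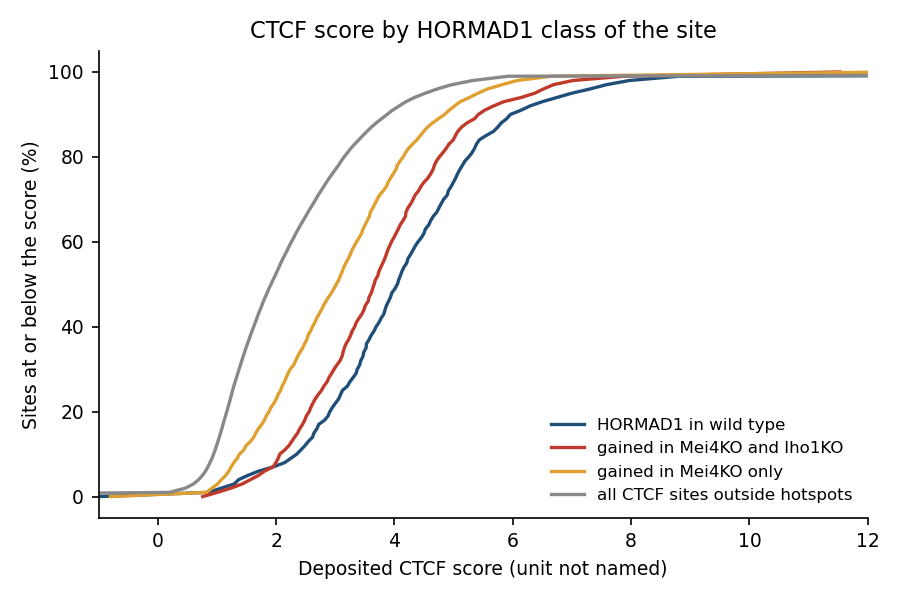
The horizontal axis is the deposited CTCF score, shown from -1 to 12, and the vertical axis the percentage of sites at or below it, as 1 cumulative curve for each class. Above a score of 2 the curve of the gained sites (median 3.66) lies between those of Mei4KO-only sites (3.02) and wild-type HORMAD1 sites (4.05), and over most of the range all 3 lie to the right of all CTCF sites outside hotspots (1.91).

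Among the gained sites, those of higher CTCF score were more often at a HORMAD1 peak in Spo11KO. The gained sites were divided by score into 4 classes of equal size. From the lowest to the highest, the shares were 36.6%, 49.8%, 52.4% and 57.3%, and the top class exceeded the bottom by 20.7 points (11.6 to 29.3). In Prdm9KO they were 7.33%, 11.3%, 12.6% and 16.4%, with a difference of 9.05 points (3.18 to 15.0). IHO1 of Mei4KO showed no such gradient, with 10.3%, 11.3%, 9.96% and 10.8%, nor did SYCP3 of Iho1KO, with 16.8%, 15.6%, 11.7% and 13.4%. The 3 classes of sites kept their order within each of these classes. In the highest, HORMAD1 of Spo11KO was at 88.0% of wild-type HORMAD1 sites, 57.3% of gained sites and 13.7% of Mei4KO-only sites.

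**Figure D4:**
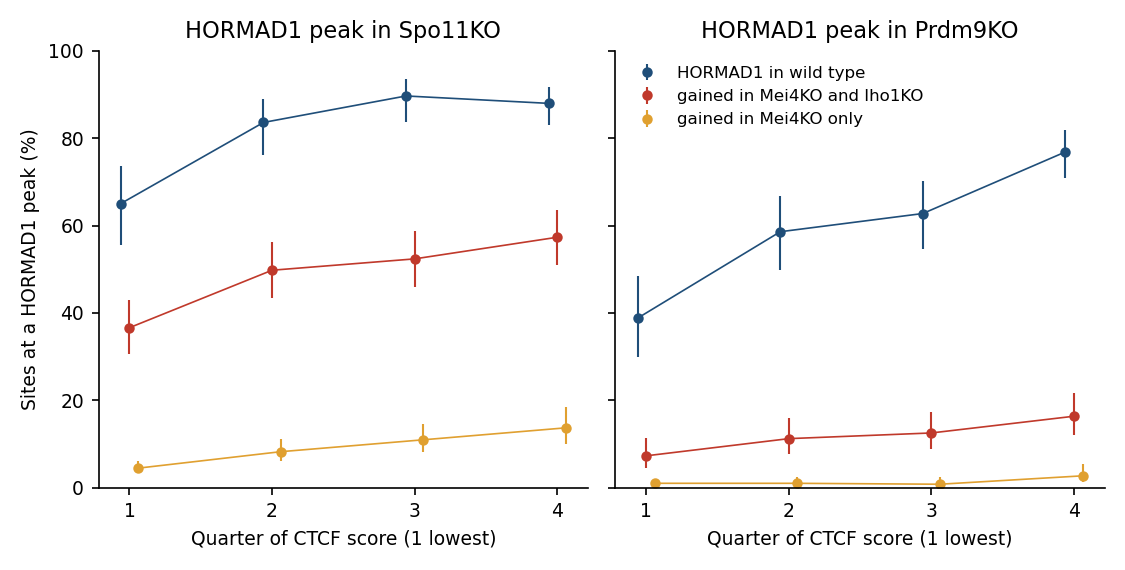
The horizontal axis gives 4 classes of the CTCF score, with bounds set on the gained sites (2.77, 3.66 and 4.56), and the vertical axis the percentage of sites at a HORMAD1 peak of Spo11KO (left) or Prdm9KO (right); bars are Wilson 95% intervals. In each class the gained sites (red) lie below the wild-type HORMAD1 sites (blue) and above Mei4KO-only sites (yellow), from 36.6% to 57.3% in Spo11KO.

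The sites at the ends of the score range varied in their other peaks. The highest score, 11.5, was at chr2:131208928-131211627, within 1 kb of an end of Ap5s1, which encodes a subunit of the AP-5 adaptor complex; HORMAD1 of Prdm9KO was the only other list there. The next were chr7:135734820-135737647 (9.80) and chr2:148900748-148903541 (9.31), each in 5 lists, both with SYCP3 of the wild type and Iho1KO and IHO1 of Mei4KO. The site chr2:119188315-119190635 (8.99), inside Dnajc17, had HORMAD1 of Spo11KO and SYCP3 of Iho1KO, and chr15:97662950-97668750 (8.89) had HORMAD1 of Spo11KO alone. A high score did not bring further peaks at every site: chr15:61156660-61159020 (8.02), chr7:122250543-122253456 (7.89) and chr9:30479257-30481616 (7.87) were in none of the 13 lists. The lowest scores, 0.761 and 0.759, were at chr2:132521714-132523587, with IHO1 of Mei4KO, and at chr12:110804870-110807154, near ends of Wdr20 and Mok, with no other list.

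Gained sites that also had HORMAD1 in Spo11KO carried IHO1 and SYCP3 peaks more often than those that did not. IHO1 of Mei4KO was at 72 of 454 (15.9%) and 26 of 472 (5.51%), a difference of 10.4 points (6.43 to 14.4). IHO1 of the wild type was at 8.37% and 3.18% (difference 5.19, 2.21 to 8.36), and IHO1 of Spo11KO itself at 9.03% and 2.33% (6.70, 3.78 to 9.86). SYCP3 of Iho1KO was at 19.6% and 9.32% (10.3, 5.78 to 14.8), and SYCP3 of Hormad1KO at 6.83% and 2.54% (4.29, 1.58 to 7.20). The differences in SYCP3 of Spo11KO (0.525, -1.54 to 2.67), Mei4KO (0.770, -1.56 to 3.18) and Prdm9KO (0.669, -0.447 to 2.04) were not called. Split instead by HORMAD1 in Prdm9KO (110 sites with and 816 without), the same differences were called. They were 4.53 points (1.07 to 10.8), 5.73 (1.70 to 12.4) and 2.48 (0.575 to 7.47), on 7, 9 and 3 of the 110 sites. The median CTCF scores of sites with Spo11KO HORMAD1 (4.07 with Prdm9KO HORMAD1 and 3.73 without) were above those of the rest (3.48 and 3.51), and the part of the score in these differences was not tested.

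**Figure D5:**
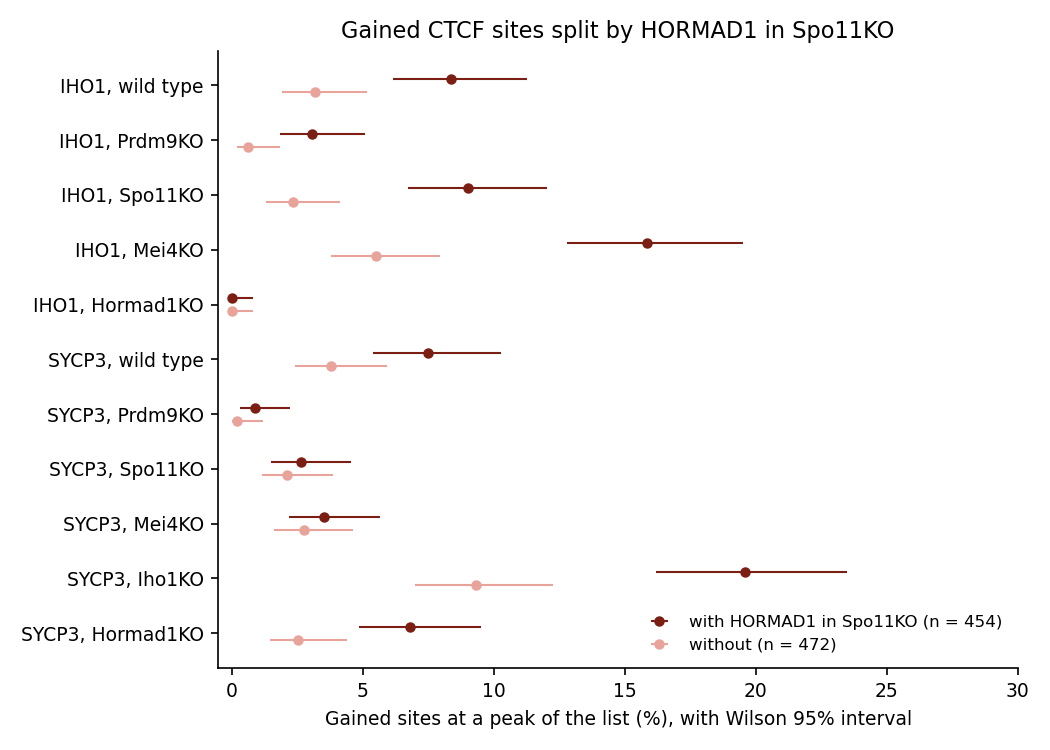
Each row is an IHO1 or SYCP3 list, and the horizontal axis gives the percentage of gained sites at one of its peaks, for the 454 with a Spo11KO HORMAD1 peak (dark) and the 472 without (light); bars are Wilson 95% intervals. The widest gaps are in IHO1 of Mei4KO (15.9% and 5.51%) and SYCP3 of Iho1KO (19.6% and 9.32%).

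By position, the gained HORMAD1 peaks were centred near the CTCF sites. The 926 sites lay in 923 distinct Mei4KO peaks and 923 distinct Iho1KO peaks, so that almost every site had its own. The Iho1KO peaks at gained sites had a median width of 1288 bp, below the 1599 bp of their whole list, and the Mei4KO peaks 2583 bp, close to the 2580 bp of theirs. The median distance between the centre of the CTCF site and that of the peak was 345 bp in Mei4KO, 262 bp in Iho1KO and, in lists that the rule did not use, 232 bp in Spo11KO (454 sites) and 172 bp in Prdm9KO (110 sites). The centres were within 500 bp at 75.8% of the Spo11KO and 83.6% of the Prdm9KO sites. For Spo11KO peaks at wild-type HORMAD1 sites the share was 72.3%. For Mei4KO peaks it was 63.1% at gained sites, 60.7% at wild-type HORMAD1 sites and 60.3% at Mei4KO-only sites. These distances thus do not set the gained sites apart. The CTCF rows themselves were wide, with a median of 2714 bp, against 1567 bp for all autosomal sites outside hotspots, and wider intervals overlap others more easily. With each CTCF row reduced to 1 kb at its centre, 870 sites met the rule and the calls of all 26 differences were the same.

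Gained sites were mostly far from wild-type HORMAD1 peaks. The median gap to the nearest was 388 kb (quartiles 145 and 879), the smallest 0.194 kb, and 32 sites were within 10 kb. For Mei4KO-only sites the median was also 388 kb. The gap to the nearest wild-type DMC1 hotspot had a median of 52.9 kb, as for all autosomal CTCF sites outside hotspots (52.4 kb). Neighbouring gained sites were a median of 988 kb apart, and 15 of 907 neighbouring pairs were under 10 kb apart. The sites were on all 19 autosomes, from 1.73% of the CTCF sites outside hotspots on chromosome 16 (18 sites) to 3.98% on chromosome 10 (61 sites).

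The gained sites overlapped protein-coding genes less often than other CTCF sites did. They lay in or across such a gene in 360 of 926 cases (38.9%, 35.8 to 42.1), while 56.8% of all autosomal CTCF sites outside hotspots did, and the difference from the other such sites was -18.5 points (-21.6 to -15.3). When the other sites were weighted to the gained sites' 4 classes of CTCF score, it was -13.7 points (-17.0 to -10.4). Wild-type HORMAD1 sites had a share of 36.7%, and the difference, 2.22 points (-2.80 to 7.16), was not called. Mei4KO-only sites had 46.1% (-7.21 points, -11.0 to -3.35). Within 1 kb of an end of a protein-coding gene lay 14.3% of the gained sites and 14.4% of all such CTCF sites, a difference from the others of -0.167 points (-2.31 to 2.26). It was -3.18 points (-5.37 to -0.689), and called, among the 50% of CTCF sites with the higher scores. RefSeq promoter windows were at 87 gained sites (9.40%, against 9.31% of all such CTCF sites).

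Of the gene groups looked at, 6 gained sites (0.648%) were in or within 1 kb of genes of the Hox, protocadherin and imprinted clusters, where CTCF binding is well known, against 0.212% of all autosomal CTCF sites outside hotspots (65 of 30630). In the Hox clusters, whose genes set position along the body axis, the site at Hoxa10 and Hoxa11 (chr6:52238649-52242052, score 3.08) was in no other list. That at Hoxb8 and Hoxb9 (chr11:96276048-96282410, score 2.57) was in 7, among them HORMAD1 of Prdm9KO and SYCP3 of the wild type, Mei4KO and Iho1KO. The other 4 were in the protocadherin clusters, which encode adhesion proteins of neurons: 1 within the Pcdha genes (score 2.95, HORMAD1 of Spo11KO and Prdm9KO and IHO1 of the wild type), and 3 at Pcdhb2 (1.97), Pcdhb3 (1.70) and Pcdhb8 (2.12), in 4, 2 and 5 lists. None lay at the 38 meiotic genes matched on autosomes or at the 12 cohesin and loop genes, where 0.134% and 0.0294% of all CTCF sites outside hotspots lay (41 and 9 of 30630), shares below the limit that a count of 0 of 926 allows.

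At the border of the rule, the smallest overlaps with a knockout HORMAD1 peak were 191 bp at chr7:127660534-127661763 (score 0.994), near an end of Bcl7c, and 335 bp at chr3:121309324-121311113 (1.74), inside Alg14. The sites that missed membership by least were chr6:83730214-83731832 (1.83), inside Vax2, and chr13:31798950-31804015 (2.81), 33 and 86 bp from an Iho1KO HORMAD1 peak. The median of the smaller of the 2 overlaps was 1244 bp.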

How the data were processed

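Chromatin immunoprecipitation lists of 24 of the 36 groups were analysed, 1 list per group. Per the submitters' processing notes, Bowtie2, MACS2 and the build mm10 were used, with no version, role or threshold given. The authors subtracted the signal of the protein's own knockout for MEI4, IHO1, HORMAD1 and SYCP3, per the design text of the series, which names no such control for CTCF or DMC1. Whether replicates were pooled is not given in the sources used here. The protein lists give the start and end of each deposited peak and no strength. The deposited CTCF list adds a score for each peak, whose unit is not named. The deposited DMC1 lists add a signal value per hotspot, which was not used beyond the hotspots' positions.

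Overlaps of at least 1 bp were counted with Python 3.11.15, NumPy 2.4.6 and SciPy 1.17.1, after checks on simulated data. Shares have Wilson and differences Newcombe 95% intervals, called where they exclude 0. Differences between 2 weighted shares combined the Wilson bounds of each of 4 score classes. Genes and promoters are from RefSeq (GRCm38.p6), with 250 bases before and 50 after each start. The alternatives tried are in the closing section. Named sites were the 5 members of highest CTCF score, the 5 in most lists, the 3 of highest score in no list, the 2 of lowest score, those at MEI4 peaks, and the nearest on both sides of the rule's border. Sites at gene groups were named after their values were seen, as were those at printed promoters. The comparisons of gene overlap and of gene ends with other CTCF sites, and those with Iho1KO-only sites, were added after the data were examined. For a count of 0 the limit given is 3 counts of the total. The members and lists were chosen with earlier results of these data known. Depth is unknown for every list.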

Additional observations from a re-analysis of the deposited data

How the results depend on the processing

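Under 8 planned and 3 added alternatives, 266 of 273 values of the 26 differences did not reverse and were called or not called as reported. For 1 of these, IHO1 of Hormad1KO against wild-type HORMAD1 sites, the difference was 0 with the wider 50% of peaks. That setting also made most differences over 1.5 times smaller, as the values beside the results show. With the wider 50% of a list's peaks, the differences from Mei4KO-only sites were no longer called for IHO1 of the wild type (0.414 points) and Prdm9KO (0.229), and for SYCP3 of the wild type (0.350), Mei4KO (0.700) and Hormad1KO (0.509), and SYCP3 of Prdm9KO reversed (-0.0886, not called with either setting); this setting leaves fewer peaks to overlap. Without sites at gene ends, SYCP3 of Spo11KO was called (1.22). The gene-end difference of gained sites from other CTCF sites, not called as reported, was called in the upper 50% of scores (-3.18), with 1 kb at each CTCF centre (-2.95) and with weights from the members' 4 score classes (-2.64), and reversed without sites within 10 kb of a wild-type HORMAD1 peak (0.00723, not called); the cause was not tested. The number of members ranged from 794 without gene ends to 924 with an overlap of at least 50%. Their median score ranged from 3.66 to 3.70 where it was computed, which leaves out the upper 50% of scores. No paired analysis was possible because each group has 1 list, so that replicate numbers cannot pair any values and no replicate could be left out. With no depth or peak strength, a site missing from a list cannot be told from one under its threshold.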
